A study of Homo sapiens with 4 samples.

Results

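The 9 genes described here encode proteins that bring fatty acids across the cell membrane or bind them inside the cell: the surface receptor CD36, the 5 fatty acid transport proteins SLC27A1 to SLC27A5, and the fatty acid binding proteins FABP1, FABP4 and FABP5. They were chosen by name, with earlier results of these data known, and each matched 1 of the 62655 Ensembl gene IDs in the deposited count table. Of the 9, 8 passed the filter on low counts and were tested, and FABP4 had no read in any library. The cells were Hep G2, an established human hepatocellular line widely used as a stand-in for hepatocytes, and all 4 libraries came from cells loaded with lipid and transfected. The plating density was 150000 cells per ml; oleic acid was added after 24 h, and the cells were transfected 24 h later with HiPerFect reagent, and harvested after a further 24 h. The 2 mimic libraries came from cells given an oligonucleotide that copies LysTTT-5'tRF, the leading piece of a lysine transfer RNA whose anticodon is TTT, and the 2 control libraries from cells given a negative control oligonucleotide. No library here came from cells without oleic acid or without transfection, so the levels below are those of the loaded, transfected line, and a response to the loading itself was not measured. Since the labels leave it unsaid whether the 2 libraries of a group are separate cultures, the p-values reflect only how these libraries vary, which may be technical. Control library 2 stood apart in that 10.4% of its total aligned to several places, against 8.30% to 8.47% in the other 3 libraries; fold changes without it are given for each of the 8 tested genes.

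Long-chain fatty acids reach a hepatocyte bound to albumin and cross the plasma membrane with the help of CD36 and of the SLC27A proteins, several of which also join the fatty acid to coenzyme A and so trap it in the cell. Inside, fatty acid binding proteins hold the poorly soluble molecule and carry it to the endoplasmic reticulum, mitochondria, peroxisomes, lipid droplets or the nucleus, where it can act as a ligand of the PPAR receptors. In liver FABP1 is the main binding protein, SLC27A2 and SLC27A5 are the characteristic transporters, and FABP4 belongs mainly to adipocytes and macrophages.

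Promoter windows from the RefSeq table on GRCh38.p14 are shown for FABP1, the most abundant of the 9 transcripts, for SLC27A4, the most abundant transporter, and for SLC27A5, the transporter known as liver-specific, because these 3 differ most plainly in base composition. Each window runs 5′ to 3′ along the gene's own strand, from 250 bases before the annotated start to 50 bases after it. Capitals mark matches, on either strand, to TATAAA (the TATA box letters), AGGTCA (the half-site bound by many nuclear receptors), GTTAAT (part of the HNF1 site) or GGGCGG (the GC box). The windows are chr2:88128013-88128312 on the minus strand for FABP1, chr9:128340277-128340576 on the plus strand for SLC27A4 and chr19:58511943-58512242 on the minus strand for SLC27A5.
FABP1: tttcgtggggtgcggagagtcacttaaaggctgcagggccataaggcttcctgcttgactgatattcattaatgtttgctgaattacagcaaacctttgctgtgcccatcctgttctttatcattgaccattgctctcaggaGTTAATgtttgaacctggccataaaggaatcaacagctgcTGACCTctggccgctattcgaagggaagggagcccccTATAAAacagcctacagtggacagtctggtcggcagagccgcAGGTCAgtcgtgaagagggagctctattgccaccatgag
SLC27A4: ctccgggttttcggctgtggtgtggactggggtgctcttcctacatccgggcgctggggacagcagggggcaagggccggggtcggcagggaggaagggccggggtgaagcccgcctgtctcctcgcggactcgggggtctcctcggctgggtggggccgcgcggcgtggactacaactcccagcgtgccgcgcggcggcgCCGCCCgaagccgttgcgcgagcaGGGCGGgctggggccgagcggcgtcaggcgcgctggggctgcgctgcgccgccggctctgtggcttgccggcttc
SLC27A5: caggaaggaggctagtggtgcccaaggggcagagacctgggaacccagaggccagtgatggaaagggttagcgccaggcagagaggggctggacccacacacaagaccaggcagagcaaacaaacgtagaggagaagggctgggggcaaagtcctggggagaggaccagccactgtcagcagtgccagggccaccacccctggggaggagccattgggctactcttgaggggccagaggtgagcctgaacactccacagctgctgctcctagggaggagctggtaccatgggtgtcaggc

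The FABP1 window held 1 TATAAA, 1 GTTAAT and 2 AGGTCA matches, of which that at bases 183 to 188 lay on the opposite strand, and no match overlapped another. Of 27305 promoter windows of the same length, 1 per gene, 12% held TATAAA, 6.89% held GTTAAT, 13.9% held AGGTCA and 44.6% held GGGCGG on either strand. The SLC27A4 window held 2 GC boxes and 38 CpG dinucleotides, FABP1 had 7 CpG, and SLC27A5 had 2 CpG and none of the 4 sets of letters. The median window had 14 CpG. The windows of SLC27A1, SLC27A2 and SLC27A3 also lay above the median, with 31, 23 and 26 CpG and with 5, 1 and 4 GC boxes. That of SLC27A1, chr19:17470274-17470573, lies inside the gene's span of 17468767 to 17506168, downstream of its outermost start. All matches describe the letters only, and CD36 was left out because the table gives it 6 starts. FABP4 and FABP5 are not shown.

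The transcripts of the 9 genes spanned a wide range of levels, and FABP1 stood far above the rest. Levels between genes are given per length, as transcripts per 1000000 (TPM) computed from the counts and the summed exon length of each gene. FABP1, which lies on chromosome 2 from 88122982 to 88128062, had 588 and 622 TPM in mimic libraries 1 and 2, against 603 and 584 TPM for control libraries 1 and 2. That placed it between rank 148 and rank 160 among all genes in each library. It made up between 86.8% and 88.5% of the summed TPM of all 9 genes.

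The transporters came next, led by the broadly expressed SLC27A4 (chromosome 9, 128340527 to 128361470), known for its part in fat absorption and in the skin barrier. SLC27A4 had 28.1 and 28.7 TPM in the mimic libraries, against 30.1 and 33.8 TPM in the controls. SLC27A2 (chromosome 15, 50182196 to 50236385), a transporter and very long-chain acyl-CoA synthetase of liver and kidney, had 15.3 and 17.5 TPM with the mimic, against 16.8 and 17.5 TPM in the controls. SLC27A1 (chromosome 19, 17468767 to 17506168), best known from muscle and fat, followed with 11.1 and 9.64 TPM in mimic libraries and 10.7 and 9.86 TPM in controls.

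Below these, FABP5 and CD36 lay close together. FABP5 (chromosome 8, 81280536 to 81284775), the epidermal binding protein, had 7.28 and 8.38 TPM with the mimic, against 9.01 and 9.80 TPM in the controls. CD36 (chromosome 7, 80602207 to 80679274) had 7.80 and 8.43 TPM with the mimic, against 6.61 and 9.95 TPM in the controls. The ranges over the 4 libraries overlapped between SLC27A1 and FABP5 and between FABP5 and CD36. The order of these neighbours was thus not set beyond the spread. With the exon lengths used here, every other pair of neighbours lay apart.

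SLC27A5 and SLC27A3 were the lowest transcripts detected. SLC27A5 (chromosome 19, 58498333 to 58511992), which in liver also joins bile acids to coenzyme A, had 5.70 and 5.82 TPM with the mimic, against 5.69 and 4.88 TPM in the controls. SLC27A3 (chromosome 1, 153775407 to 153780157), an acyl-CoA synthetase of less well known function, had 3.49 and 2.15 TPM with the mimic, against 2.36 and 2.60 TPM in the controls. FABP4 (chromosome 8, 81478419 to 81483233) had 0 reads in each library, and a count of 0 allows up to 3 reads, or 0.196 and 0.160 counts per 1000000 reads (CPM) in the mimic libraries and 0.178 and 0.186 CPM in the controls. That limit covers counting error only.

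The order depends in part on the exon length used. With the exons of the comprehensive GENCODE 29 set in place of its basic set, FABP5 at 6.95 TPM stood above SLC27A1 at 6.30 TPM. SLC27A5 and SLC27A3 came to 2.15 and 2.10 TPM (all means of 4 libraries). SLC27A5 then ranged from 1.90 to 2.26 TPM and SLC27A3 from 1.70 to 2.76 TPM, so these neighbours no longer lay apart. The largest relative moves were those of SLC27A5, at 5.52 TPM with the basic lengths, and of CD36, at 3.39 TPM, against 8.19 TPM with the basic lengths. This setting was added after the data were seen.

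**Figure D1:**
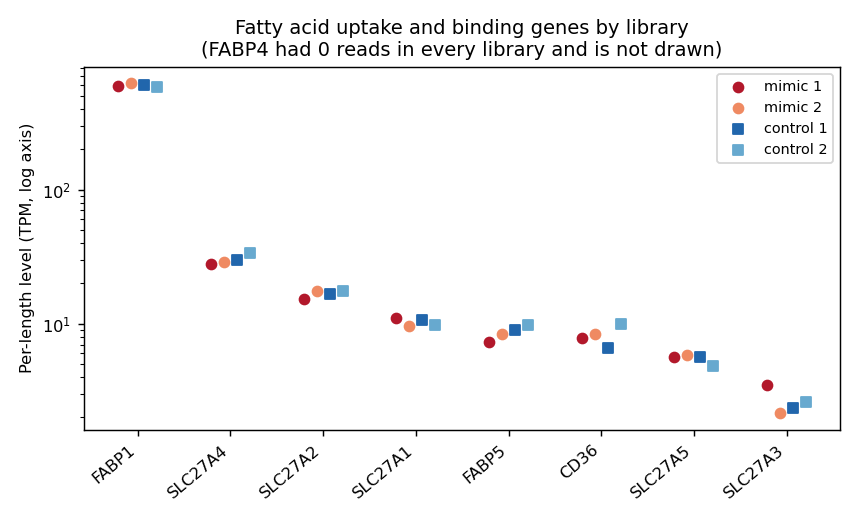
Level per length in TPM, on a log axis, of the 8 detected genes in each of the 4 libraries; red circles are mimic libraries and blue squares control libraries. FABP1 stands at 584 to 622 TPM and every other gene below 34 TPM, and the points of the mimic and control libraries lie close together for each gene.

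SLC27A4 and SLC27A2 made up most of the transporter family in each library. SLC27A4 held 44.0% and 44.9% of the summed SLC27A TPM in the mimic libraries, against 45.9% and 49.2% in the controls. SLC27A2 held 24.1% and 27.5% with the mimic, against 25.6% and 25.5% in the controls. SLC27A4 was thus the largest part in each library, and its share was lower in both mimic libraries than in either control. The SLC27A5 share went the other way, at 8.94% and 9.13% with the mimic, against 8.67% and 7.10% in the controls. Such a lack of overlap was common, seen in CPM for 39.1% of all genes tested. The shares of SLC27A1, SLC27A3 and SLC27A5 averaged 16.3% ± 1.65, 4.43% ± 1.498 and 9.04% ± 0.131 with the mimic, and 15.3% ± 1.34, 3.70% ± 0.133 and 7.89% ± 1.11 in the control libraries (mean ± SD, n = 2 each). The summed TPM of the 5 transporters was 63.7 and 63.8 in the mimic libraries, against 65.6 and 68.7 in the controls. No test was made of shares or sums, since 2 libraries against 2 cannot give an exact p under 0.05.

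**Figure D2:**
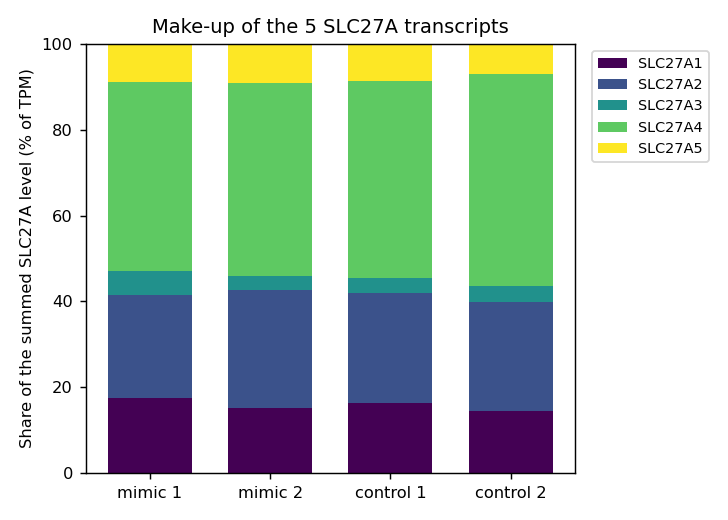
Stacked bars give each SLC27A gene's percentage of the summed TPM of the 5 genes, 1 bar per library. SLC27A4 and SLC27A2 form the largest bands in each library, and the SLC27A4 band runs from 44.0% in mimic library 1 to 49.2% in control library 2.

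The comparison of mimic with control asked whether adding the tRNA fragment to lipid-loaded cells changed these transcripts. None of the 8 tested genes passed at an adjusted p under 0.05 (quasi-likelihood test of edgeR, with p-values adjusted by the Benjamini-Hochberg method over all 14464 genes in the fit). Among all genes 50, or 0.346%, passed, 40 higher (0.277%) and 10 lower (0.0691%) with the mimic. No member reached an unadjusted p under 0.05 either, where 1364 of all genes, or 9.43%, did. The other tools gave 0 members as well, limma voom with an adjusted p for all 8 and DESeq2 with one for 1 of the 8. The log2 fold changes of the 8 had a median of 0.01 and ran from -0.24 to 0.16, 4 above and 4 below 0, beside a median of 0.00 over all genes tested. The groups did not overlap in 3 of the 8 (SLC27A4 and FABP5 lower with the mimic, SLC27A5 higher), which is near the share of 39.1% among all genes tested (19.8% with the mimic above and 19.3% with it below).

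FABP1 gave the narrowest estimate. In scaled counts it had 395 and 421 CPM with the mimic, against 405 and 388 CPM in the controls. The groups overlapped, since control library 1 lay above mimic library 1. The mean was 408 ± 17.8 CPM under the mimic, against 397 ± 12.1 CPM in controls (SD, n = 2 each), a fold of 1.03 (95% interval 0.962 to 1.10; adjusted p = 0.856 in edgeR, Benjamini-Hochberg). Behind it stood 6053 to 7899 reads per library, a counting error of about 1.22%, so a change of the FABP1 transcript beyond 1.10-fold upward or 0.962-fold downward lay outside the interval. FABP1 had a log2 fold change of 0.01 without control library 2, against 0.04 with all libraries.

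SLC27A4 had the smallest p of the 8. It stood at 30.2 and 31.0 CPM with the mimic, against 32.3 and 36.0 CPM in the controls, lower in both mimic libraries, with control library 2 the farthest from the rest. Its log2 fold change was -0.16 (SE 0.09, 95% interval -0.35 to 0.04), with an unadjusted p of 0.107 and an adjusted p of 0.637 in edgeR (Benjamini-Hochberg). Without control library 2 the log2 fold change was -0.08. Without control library 1 it was -0.23, with an unadjusted p of 0.0403 and an adjusted p of 0.337 in edgeR.

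FABP5 had the largest difference in size and few reads behind it. It stood at 3.27 and 3.78 CPM with the mimic, against 4.04 and 4.35 CPM in the controls, from 50 and 71 reads and from 68 and 70 reads. Both mimic libraries were lower than either control. The fold was 0.847 (95% interval 0.591 to 1.21; adjusted p = 0.844 in edgeR, Benjamini-Hochberg), so only a fall below 0.591-fold or a rise above 1.21-fold lay outside the interval. Without control library 2 the log2 fold change was -0.19, against -0.24 with all libraries. The table also lists 15 FABP5 pseudogene copies, 6 of them with reads, and these held 4 and 11 reads in the mimic libraries and 6 and 4 in the controls. Reads that align to several places were kept out of gene counts, so the FABP5 level is less certain than those of genes without such copies, and none of the other 8 genes has a pseudogene of its name in the table.

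CD36 differed more between the 2 controls than between the groups. It had 9.41 and 10.2 CPM with the mimic, against 7.97 and 11.9 CPM in the controls, so both mimic libraries lay between the controls. The control libraries differed 1.49-fold and the mimic libraries 1.09-fold, where counting error alone is about 7.78% per library. The fold between groups was 0.997 (95% interval 0.772 to 1.29; adjusted p = 0.998 in edgeR, Benjamini-Hochberg). Its log2 fold change was -0.27 without control library 1 and 0.31 without control library 2.

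**Figure D3:**
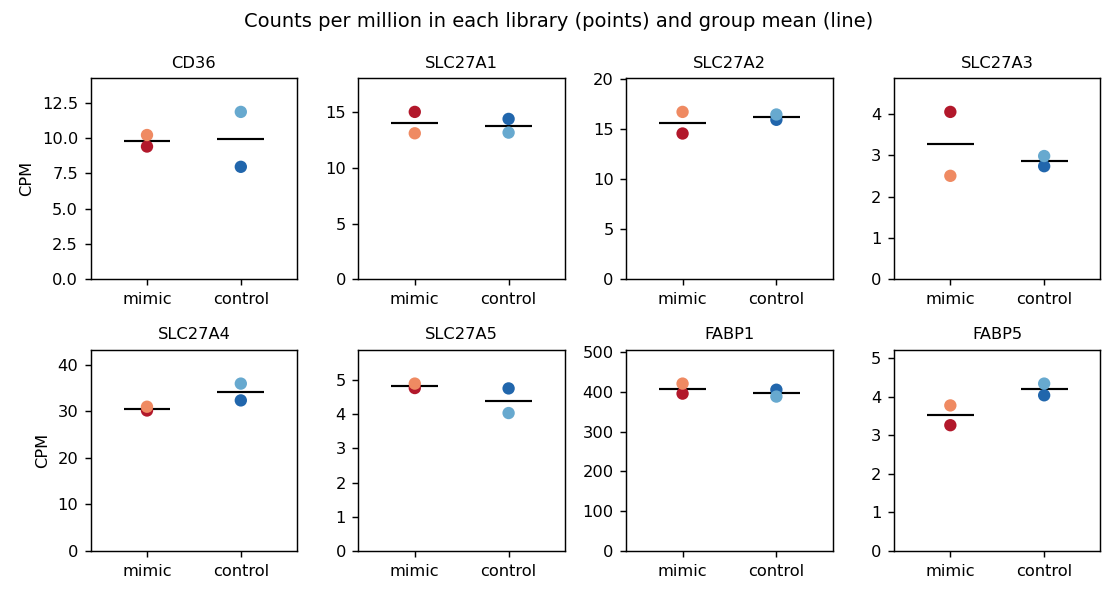
CPM of each tested gene in the mimic and control libraries (points; red and orange are mimic libraries 1 and 2, dark and light blue control libraries 1 and 2) with the group mean as a line; each axis starts at 0. The points of the groups overlap for CD36, SLC27A1, SLC27A2, SLC27A3 and FABP1, and the mimic points lie below the controls for SLC27A4 and FABP5.

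The liver transporters SLC27A2 and SLC27A5 did not pass the test. SLC27A2 had 14.6 and 16.7 CPM with the mimic, against 15.9 and 16.5 CPM in the controls, overlapping groups with a fold of 0.972 (95% interval 0.809 to 1.17). SLC27A5 had 4.77 and 4.90 CPM with the mimic, against 4.76 and 4.04 CPM in the controls, where control library 1 nearly touched the mimic libraries, and its fold of 1.10 had an interval from 0.789 to 1.53. Without control library 2 the log2 fold change of SLC27A5 was 0.03, against 0.14 with all libraries, and that of SLC27A2 was -0.02, against -0.04. Both overlap exons of genes on the opposite strand, SLC27A2 over 19.9% of its exon sequence with ATP8B4 and SLC27A5 over 16.5% with ZNF446 and an antisense gene. Whether HTSeq counted by strand is not given in the sources used here, so the levels of these 2 genes are less certain.

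SLC27A1 and SLC27A3 showed no difference past the test either. SLC27A1 had 15.02 and 13.1 CPM with the mimic, against 14.4 and 13.2 CPM in the controls, a fold of 1.014 (95% interval 0.832 to 1.24) with both controls between the mimic libraries. SLC27A3 had 4.05 and 2.50 CPM with the mimic, against 2.74 and 2.98 CPM in the controls. The mimic libraries lay on either side of both controls and differed 1.62-fold, and the 95% interval of the fold ran from 0.729 to 1.72. Without control library 2 the log2 fold change was -0.04 for SLC27A1, against 0.02 with all libraries, and 0.23 for SLC27A3, against 0.16. SLC27A3 shares 8.32% of its exon sequence with INTS3 on the same strand. The adjusted p-values of SLC27A1, SLC27A2, SLC27A3 and SLC27A5 were 0.988, 0.964, 0.922 and 0.916 in edgeR, Benjamini-Hochberg.

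Precision differed widely among the 8 genes and followed the reads behind them. The 95% interval of the log2 fold change extended 0.10 to either side for FABP1, 0.19 for SLC27A4, 0.27 and 0.28 for SLC27A2 and SLC27A1, 0.37 for CD36, 0.48 for SLC27A5, 0.52 for FABP5 and 0.62 for SLC27A3. The median over all genes tested was 0.25. A rise of 1.2-fold lay outside the interval of FABP1 (0.962 to 1.10), SLC27A2 (0.809 to 1.17) and SLC27A4 (0.785 to 1.03). It lay inside that of the other tested genes. A fall of the same size on the log2 scale lay outside the interval of FABP1 only. The difference between group means exceeded the larger difference within a group in SLC27A4 and FABP5 and in none of the other 6. In log2 CPM it was -0.16 against -0.15 between the controls for SLC27A4. For FABP5 it was -0.25 against -0.21 between the mimic libraries. The share of all tested genes with this trait was not computed, so it singles out neither gene.

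**Figure D4:**
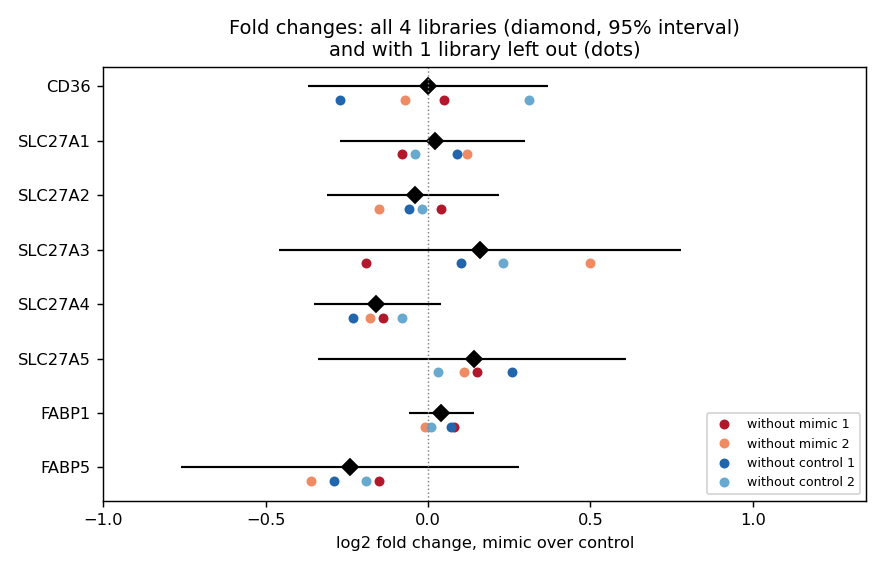
Log2 fold change, mimic over control, of the 8 tested genes with all 4 libraries (diamond) and its 95% interval (line), and with 1 library left out (dots coloured by the library left out). Every interval spans 0, from the narrow one of FABP1 to that of SLC27A3 between -0.46 and 0.78, and the dots of CD36 run from -0.27 to 0.31.

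Few relatives of the 2 families were expressed. Of 14 other SLC27 and FABP genes and retinoid-binding relatives of the FABP fold, 5 had no read in any library and 4 were tested. None passed the edgeR test at an adjusted p under 0.05. An unadjusted p under 0.05 in edgeR was reached by 1 of the 4, beside 9.43% of all genes tested. RBP5, a retinol carrier, is not that gene. It stood at 5.56 ± 0.178 CPM under the mimic, against 6.69 ± 0.377 CPM in controls (log2 fold change -0.27). Its unadjusted p was 0.193 and its adjusted p 0.729 in edgeR (Benjamini-Hochberg). The median log2 fold change of the 4 was -0.06.

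Other membrane genes of fatty acid uptake were measured as 24 genes, of which 14 were tested and 4 had no read. None passed, in a list with a median log2 fold change of -0.02. An unadjusted p under 0.05 in edgeR was reached by 2 of the 14, both lower with the mimic. Among all genes tested 9.43% reached it, 732 higher and 632 lower. CAVIN2, a coat protein of caveolae, stood at 119 ± 10.9 CPM under the mimic, against 142 ± 4.06 CPM in controls (SD, n = 2 each; log2 fold change -0.25, 95% interval -0.38 to -0.12; adjusted p = 0.0996 in edgeR, Benjamini-Hochberg). Its log2 fold change was -0.16 without mimic library 1 and -0.35 without mimic library 2. It was -0.28 without control library 1 and -0.22 without control library 2. Whether CAVIN2 passed the threshold in these fits depended on which library was left out. EHD2, an ATPase at the neck of caveolae, had 1.46 ± 0.335 CPM under the mimic, against 2.54 ± 0.695 CPM in controls, with a log2 fold change of -0.82 that did not pass (adjusted p = 0.486 in edgeR, Benjamini-Hochberg). The caveolins themselves, named after their values were seen, were all but absent, with CAV1 at 0.0532 ± 0.0753 CPM under the mimic, against 0.153 ± 0.0476 CPM in controls. GOT2, the aspartate aminotransferase also found at the plasma membrane as a fatty acid binding protein, was the most abundant of the list per length, at 190 ± 3.73 TPM under the mimic, against 199 ± 11 TPM in controls.

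The genes that take over the fatty acid once it is inside included transcripts far above any transporter in level. Of 22 acyl-CoA synthetases, thioesterases and acyl-CoA binding proteins, 20 were tested and none passed. The median log2 fold change was 0.03. An unadjusted p under 0.05 in edgeR was reached by 3 of the 20, all higher with the mimic. Among all 14464 genes it was reached by 1364, or 9.43%, of which 732 were higher and 632 lower. ACSL4, a long-chain acyl-CoA synthetase that favours polyunsaturated fatty acids, was the most abundant per length, with 300.6 ± 6.30 TPM under the mimic, against 305 ± 13.0 TPM in controls (SD, n = 2 each). ACSM3, a medium-chain acyl-CoA synthetase, stood at 53.2 ± 3.42 CPM under the mimic, against 43.4 ± 1.03 CPM in controls (log2 fold change 0.30, 95% interval 0.13 to 0.46; adjusted p = 0.139 in edgeR, Benjamini-Hochberg). ACSL1, the main long-chain synthetase of liver, stood at 81.2 ± 1.04 CPM under the mimic, against 72.3 ± 9.08 CPM in controls (log2 fold change 0.17, adjusted p = 0.498 in edgeR). In each library it had 82.0 and 80.5 CPM with the mimic, against 78.7 and 65.9 CPM in the controls. It passed only where control library 2 was the sole control (log2 fold change 0.30, adjusted p = 0.015 in edgeR), and stood at 0.05 without that library (adjusted p = 0.967 in edgeR).

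All 20 nuclear receptors, partners and liver factors known to act on genes of fatty acid uptake were tested and none passed. At an unadjusted p under 0.05 in edgeR there were 3 of the 20, 1 higher and 2 lower with the mimic, beside 9.43% of all genes tested. The median log2 fold change was -0.04, with 15 of 20 below 0 where 7180 of all 14464 genes were. That median was 0.00 without control library 2. PPARG, the receptor that drives CD36 and FABP4 in adipocytes and macrophages, stood at 47.4 ± 0.269 CPM under the mimic, against 54.2 ± 1.77 CPM in controls (SD, n = 2 each; log2 fold change -0.20, 95% interval -0.35 to -0.04; adjusted p = 0.40 in edgeR, Benjamini-Hochberg). RXRB, a partner of the PPAR receptors, stood at 45.3 ± 1.56 CPM under the mimic, against 52.8 ± 6.35 CPM in controls (log2 fold change -0.22, adjusted p = 0.412 in edgeR). RXRA, the most abundant of the list per length, had 152 ± 3.93 TPM under the mimic, against 155 ± 2.73 TPM in controls. With control library 2 as the sole control edgeR called 2 of the list, RXRB (log2 fold change -0.34, adjusted p = 0.0179) and the bile acid receptor NR1H4 (0.60, adjusted p = 0.0186, and 0.35 with all libraries), which is named after its value was seen. The log2 fold changes without control library 2 were -0.09 for RXRB and 0.15 for NR1H4, and edgeR called 0 of the list. In all 4 lists limma voom and DESeq2 called 0 genes, though DESeq2 gave an adjusted p to 0 of 9 relatives, 5 of 20 membrane genes, 7 of 22 acyl-CoA genes and 6 of 20 regulators that it fitted.

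**Figure D5:**
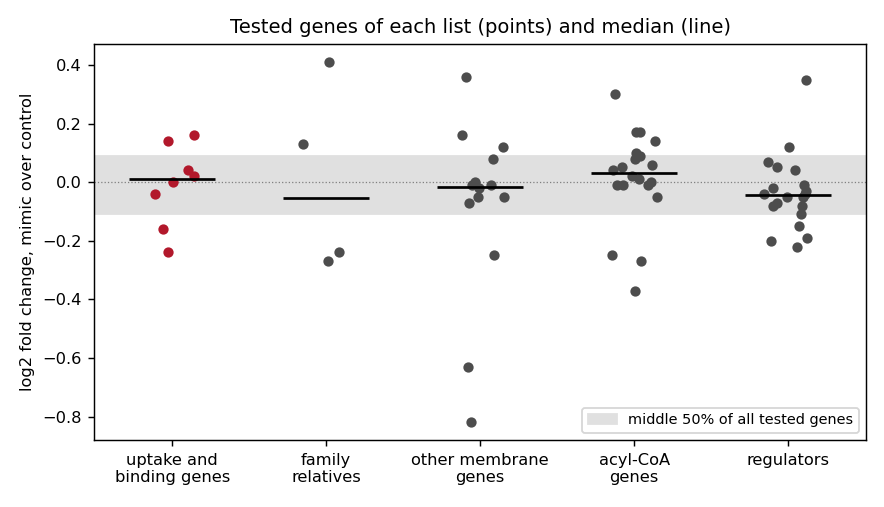
Log2 fold change, mimic over control, of each tested gene (points) in the uptake and binding genes and in the 4 lists of related genes, with each median as a line and the middle 50% of all tested genes, -0.11 to 0.09, as a grey band. The medians lie between -0.06 and 0.03, inside the band, and the lowest point is EHD2 at -0.82.

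The libraries held 15430539 and 18961222 reads in genes with the mimic and 16793484 and 15970530 in the control. All 12 hepatocyte markers had reads, and 11 of them reached at least 1 CPM in a library. The other, CYP3A4, stood at 0.131 to 0.297 CPM. Their summed level was between 47471 and 50498 CPM in the 4 libraries, of which APOB alone held 25092 to 25205 CPM. Of the markers of other cells that use CD36, FABP4 or FABP5, the adipocyte genes ADIPOQ, LEP and RETN had no read, nor had the macrophage genes PTPRC, CD163, MSR1 and MARCO or the endothelial genes KDR and TEK. Reads were found for 4 of the 7 adipocyte, 5 of the 9 macrophage and 7 of the 9 endothelial markers. Of these, 2 adipocyte, 1 macrophage and 6 endothelial markers reached at least 1 CPM in a library. The 7 adipocyte markers summed to 14.7 and 16.5 CPM in the mimic libraries and 15.7 and 20.8 CPM in the controls, most of it from the droplet proteins PLIN4 and CIDEC. The 9 macrophage markers summed to 1620 and 1530 CPM with the mimic and 1478 and 1474 CPM in the controls, nearly all from lysozyme (LYZ). The 9 endothelial markers summed to 17.8 and 18.7 CPM with the mimic and 15.8 and 18.1 CPM in the controls, led by PECAM1. In bulk RNA, fewer cells with a transcript and less of it per cell cannot be told apart.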

How the data were processed

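Poly(A)-selected RNA from 4 lipid-loaded Hep G2 samples was sequenced with a stranded KAPA kit on a NextSeq 500, per the labels' protocols. The deposited values are raw counts of reads per Ensembl gene and library. The submitters' processing notes name FastQC, Bowtie2, STAR and HTSeq and the build GRCh38.p14. No versions, strand setting or annotation release were given in the sources used here. Columns starting NC were read as the negative control; those starting with an unexplained number were read as the mimic because no other treatment exists in the series, and a different treatment would void the comparison. Columns and numbered sample titles could not be matched one to one, so library numbers are those of the columns. Of 62655 gene IDs, 62590 had a symbol. The 5 HTSeq summary entries, 23.1% to 24.1% of each library's total, were left out.

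Counts were fitted in edgeR 4.0.16 (R 4.3.3): filterByExpr (minimum count 10, minimum total 15), TMM scaling, glmQLFit with legacy = FALSE, glmQLFTest, and Benjamini-Hochberg adjustment over 14464 genes at 0.05. CPM are per 1000000 reads of the scaled library. TPM were computed from GENCODE 29 basic exon lengths. The fit was tested on simulated data, with changes larger than any estimated here for the members and in genes of at least 5 CPM. That test does not cover smaller changes or genes as low as FABP5, SLC27A3 and SLC27A5. Alternatives used DESeq2 1.42.0, limma 3.58.1, other scalings and filters, and each library left out.

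The members, lists and tests were chosen with earlier results of these data known. Named were all 9 members, each list's called genes or else its 2 smallest p-values, its most abundant gene, and the most abundant marker of each other cell type. One gene so chosen is left unreported.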

Additional observations from a re-analysis of the deposited data

How the results depend on the processing

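No member was called in any of the 12 alternatives, which covered scaling by library totals or upper quartile, DESeq2, limma voom, no filter on low counts, a minimum of 1 CPM, legacy = TRUE, each library left out, and a block. Of 96 recomputed log2 fold changes 88 kept their sign and 8 did not; for these the cause was not tested. With 1 library left out, the log2 fold change ran from -0.27 to 0.31 for CD36, from -0.01 to 0.08 for FABP1, from -0.08 to 0.12 for SLC27A1, from -0.15 to 0.04 for SLC27A2 and from -0.19 to 0.50 for SLC27A3. For CD36 it was also 0.02 in limma voom, against a fold of 0.997 in edgeR. SLC27A4 and FABP5 stayed below 0 in all 12, from -0.23 to -0.08 and from -0.36 to -0.15, and SLC27A5 above, from 0.03 to 0.26. These are the 3 members whose groups did not overlap, so leaving out 1 library could hardly reverse their sign. Such a lack of overlap was seen in 39.1% of all genes tested. The number of all genes called was 50, and 20 to 424 with 1 library left out (20 or 120 on omission of mimic library 1 or 2, and 424 or 22 on omission of control library 1 or 2). When all genes with a read were kept, edgeR called 0, with 1514 at an unadjusted p under 0.05, where limma voom called 50 and DESeq2 37 in their own settings. Calls among the acyl-CoA genes ran from 0 to 1, among membrane genes from 0 to 1 and among regulators from 0 to 2 with 1 library left out. Where 1 library is left in a group, it is assumed to vary like the other group. The titles number the mimic samples 1 and 2 and the controls 3 and 4 and so pair none, but the table's columns share the numbers 1 and 2. A replicate block on these, added after seeing the data, gave 306 calls over all genes, 0 among members, relatives and regulators, 1 among acyl-CoA genes (ACSM3) and 1 among membrane genes (CAVIN2). Deviations of same-numbered columns correlated at 0.0828 across 10233 genes of at least 5 CPM. These genes are not independent, so the value cannot decide whether same-numbered columns share a culture or preparation. Depth limits FABP5, SLC27A3 and SLC27A5, with at most 92 reads per library, most.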
